A study of Mus musculus with 4 samples.

Results

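The genes described here are the protein-coding genes of mouse chromosomes 10 and 14, taken in order of their start positions, in 2 endometrial cancer cell lines. A gene was a member when its summed TPM, transcripts per unit of library RNA after scaling each library to the same total of 1000000, was 1 or more in at least 2 of the 4 libraries. This gave 960 members, 573 on chromosome 10 and 387 on chromosome 14, out of 11851 protein-coding genes that passed the same filter in all. The deposited table held 988 coding genes of chromosome 10, of which 415 did not pass and 201 were listed at 0 in all libraries. For chromosome 14 these numbers were 891, 504 and 297. On chromosome 10 the gene just inside the filter was Eef1akmt3, whose second highest value was 1.03 TPM, and the gene just outside was Slc26a10 at 0.998 TPM. On chromosome 14 they were Slitrk6 at 1.04 TPM and Zfhx2 at 0.994 TPM. The 2 chromosomes were chosen by their low median difference between the lines, that is, selected on the same TPM values described here. A gene that passed the filter through 1 line alone had to differ between the lines.

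MECPK and MSH2KO21B are mouse endometrial cancer cell lines, with uterine cancer as their source, and each gave 2 libraries of total RNA, called replicates 1 and 2. The labels name no treatment, strain or animal age, and leave unsaid the origin of each line, whether either derives from the other, and whether replicates came from separate cultures. Every difference here is MSH2KO21B minus MECPK in log2(TPM + 1), and the added 1 shrinks the differences of weakly expressed genes. The relative difference of a gene is its difference minus 0.19, the median difference of all 11851 coding genes. Medians of chromosomes, bins, windows and lists are of relative differences. Values of single genes are differences unless called relative. All 8 epithelial markers were above 1 TPM in at least 1 library, with sums of 5236 to 5293 TPM in MECPK and 7460 to 7553 TPM in MSH2KO21B. These sums were made of different keratins: Krt8 had 1502 and 1531 TPM in MECPK and 45.9 and 43.5 TPM in MSH2KO21B, and Krt14 had 1.86 and 1.88 against 3321 and 3316 TPM. Of 10 Mullerian and endometrial markers 4 (Hoxa10, Hoxa11, Pgr and Lhx1) were listed at 0 throughout, and their sum was 199 and 207 TPM in MECPK against 66.5 and 65.4 TPM in MSH2KO21B. Of 9 stromal markers 7 stayed under 1 TPM in all libraries, and Vim, which encodes vimentin, made up nearly all of the sum of 524 and 534 TPM in MSH2KO21B, against 2.70 and 2.92 TPM in MECPK. The 6 immune markers summed to at most 3.54 TPM and the 4 endothelial markers to at most 2.78 TPM in any library, with Cd3e and Kdr among those at 0. The part of these marker differences in the results below was not tested. Between 10770 and 11473 genes per library had 1 TPM or more. Genes of the mitochondrial genome held 1.92% and 2.61% of TPM in MECPK and 4.26% and 4.28% in MSH2KO21B, and the part of this in the results was not tested.

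Each mouse chromosome carries many genes of unrelated function, so genes side by side usually share little beyond their place. Neighbouring genes can nevertheless have related RNA levels, through shared regulatory domains, through clusters of duplicated genes, or through the number of copies of the DNA that holds them. Tumour cell lines often gain or lose whole chromosomes or arms, and the RNA of the genes there tends to follow in part, gene by gene, with feedback-controlled and lineage-restricted genes departing from it. Mouse chromosomes have their centromere at one end, so each is in effect a single arm. Chromosome 10 holds the growth regulators Mdm2, Hmga2 and Cdk4 in its distal part, and chromosome 14 holds the tumour suppressor genes Rb1 and Bap1. RNA alone was measured here, and DNA copy number was not analysed here.

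The promoters of 4 genes are shown first, because they belong to the genes with the greatest departures from their chromosomes among those matched in the RefSeq promoter table, 1 higher and 1 lower on each. Timp3 (chr10:86300162-86300371, plus strand) and Sncg (chr14:34374790-34374919, minus strand) were higher in MSH2KO21B. Tpd52l1 (chr10:31445959-31446208, minus strand) and Mcpt8 (chr14:56085274-56085447, minus strand) were lower. The sequences are from RefSeq, build GRCm38.p6, and run 5′ to 3′ up to the base before the annotated gene start. Capitals mark CpG dinucleotides.
Timp3: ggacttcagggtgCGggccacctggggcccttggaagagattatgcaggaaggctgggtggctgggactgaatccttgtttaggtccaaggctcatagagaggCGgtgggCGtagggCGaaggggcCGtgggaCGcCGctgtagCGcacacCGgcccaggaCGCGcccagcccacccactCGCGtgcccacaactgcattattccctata
Tpd52l1: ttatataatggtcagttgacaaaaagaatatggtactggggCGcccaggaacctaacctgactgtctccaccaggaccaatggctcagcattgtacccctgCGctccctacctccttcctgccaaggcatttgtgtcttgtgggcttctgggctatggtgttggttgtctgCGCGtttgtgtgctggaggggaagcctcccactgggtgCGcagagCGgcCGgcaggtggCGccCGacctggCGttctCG
Sncg: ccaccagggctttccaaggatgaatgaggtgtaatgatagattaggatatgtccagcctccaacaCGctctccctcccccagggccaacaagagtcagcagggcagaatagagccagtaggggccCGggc
Mcpt8: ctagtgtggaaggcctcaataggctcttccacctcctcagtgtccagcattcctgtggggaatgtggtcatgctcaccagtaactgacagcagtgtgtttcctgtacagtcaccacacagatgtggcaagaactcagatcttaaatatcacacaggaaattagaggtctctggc
The window of 300 bases around the RefSeq start held 24 CpG dinucleotides for Timp3, 13 for Tpd52l1, 9 for Sncg and 0 for Mcpt8. The median was 24 over 473 matched members on chromosome 10, 22 over 286 on chromosome 14 and 21 over all 9240 matched coding genes. On chromosome 14 the 68 members called higher had a median of 14 CpG dinucleotides and the 148 called lower had 25, against 20 and 22 over all chromosomes. On chromosome 10 both groups had a median of 23. The letters TATAAA, searched on both strands, were in 6.77% of the promoters of chromosome 10 and 7.69% of those of chromosome 14, against 6.75% of all matched genes and 13.7% of all 32619 promoters in the table. These are counts of letters and say nothing of factor binding.

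Relative to the median coding gene, RNA from most genes of both chromosomes was lower in MSH2KO21B than in MECPK. The median relative difference was -0.40 on chromosome 10 and -0.48 on chromosome 14, ratios of 0.757 and 0.717 to the median coding gene. With no filter on low values, both medians were -0.11. On chromosome 10, 402 of 573 members (70.2%) lay below the median of all coding genes, and on chromosome 14, 282 of 387 (72.9%). Among the 19 autosomes and X these were the medians next to the lowest, with chromosome 19 below them at -0.89 and chromosome 13 (-0.24) and chromosome 12 (-0.21) above them. The 18 other chromosomes together had a median of 0.03. These values chose the chromosomes, so they are a description and no test of them is given. In bulk RNA, fewer cells with a transcript and less of it per cell cannot be told apart.

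The medians were close whichever libraries were paired. The chromosome 10 median was -0.41, -0.38, -0.40 and -0.39 in the 4 pairs of an MSH2KO21B with a MECPK library, an SD of 0.0158 over pairs that share libraries. The chromosome 14 median was -0.45, -0.46, -0.50 and -0.48, with an SD of 0.0201. Between replicates of a line, the medians were 0.00034 and 0.0033 on chromosome 10 and 0.0016 and 0.0031 on chromosome 14. The choice of the chromosomes fixes that the first values are the larger, so nothing is read from this.

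**Figure D1:**
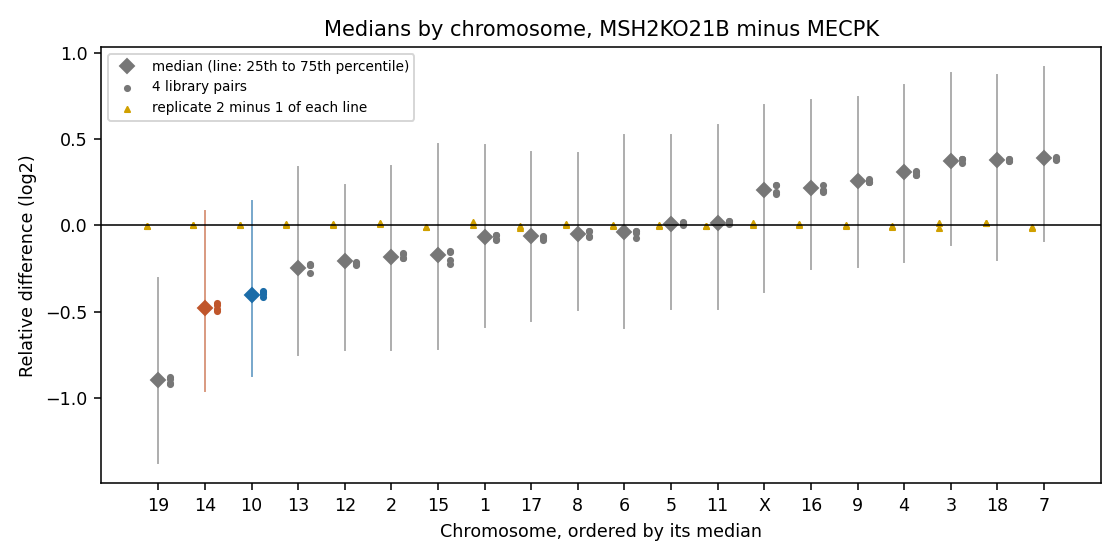
Median relative difference (log2, vertical axis) of the coding genes of each chromosome, ordered from lowest to highest, with lines from the 25th to the 75th percentile. Small points are the 4 library pairs and triangles the replicates of a line against each other; chromosomes 14 and 10, at -0.48 and -0.40, stand between chromosome 19 and chromosome 13, and the triangles lie near 0.

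As a share of all coding TPM, chromosome 10 held 7.22% and 7.10% in MECPK, and 5.18% and 5.23% in MSH2KO21B. Chromosome 14 held 1.88% and 1.84% against 1.31% and 1.31%. The 2 lines did not overlap on either chromosome, and they did not on any other autosome or X. On chromosome 6, whose median relative difference was -0.04, the share was 8.54% and 8.43% in MECPK against 5.25% and 5.30% in MSH2KO21B. On chromosome 12 it was 3.01% and 3.03% against 3.49% and 3.48%, the other way. A few abundant genes weigh on the shares of chromosomes 10 and 14, where the top 5 held 28.3% to 39.3% of a chromosome's TPM. Without the 5 most abundant genes of each, the shares were 4.39% and 4.42% against 3.64% and 3.66% on chromosome 10, and 1.15% and 1.15% against 0.940% and 0.943% on chromosome 14. The order of the lines was the same. At 1 TPM or more there were 550 and 560 genes of chromosome 10 in MSH2KO21B against 523 in each MECPK library, and 364 and 363 of chromosome 14 against 355 and 351. Over all genes the numbers were also higher in MSH2KO21B, 11436 and 11473 against 10817 and 10770.

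Of the chromosome 10 members, 277 (48.3%) were called lower and 159 (27.7%) higher by limma at a Benjamini-Hochberg adjusted p under 0.05. The calls test the difference itself, not the relative difference. Over all 11916 genes tested 29.7% were called lower and 46.5% higher, 76.2% in either direction. On chromosome 14, 199 (51.4%) were called lower and 98 (25.3%) higher. The same contrast chose the chromosomes, so nothing is read from these counts. After quantile normalization they were 336 lower and 114 higher on chromosome 10 and 255 and 69 on chromosome 14, and after median-ratio scaling 328 and 132, and 229 and 83. Calls that were also over 1 on the log2 scale numbered 72 lower and 81 higher on chromosome 10 (12.6% and 14.1%, against 11.4% and 18.9% of all genes tested). On chromosome 14 there were 64 lower and 48 higher (16.5% and 12.4%).

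Along gene order neither chromosome broke into segments. A least-squares partition with a penalty per break and at least 20 genes a segment placed 1 segment on chromosome 10, from H60c at 3256208 to Mettl7b, and 1 on chromosome 14, from its first member to Tmtc4. The same settings gave 1 segment on 13 of 20 chromosomes and 32 segments in all. Penalty factors of 2 and 6 in place of 3, and minimum lengths of 10 and 40 genes, also gave 1 segment on both. A break that was not placed is not shown to be absent, since short or shallow stretches can escape such a partition. On a fixed grid of 10 Mb, all 13 bins of chromosome 10 had a median below 0, from -0.94 to -0.17. So did all 12 bins of chromosome 14 with at least 5 members, from -0.78 to -0.05. The bin at -0.05, from 100 to 110 Mb, ranged from -0.12 to 0.03 over library pairs, so its sign differed between them. Chromosome 19 was the other one with every bin below 0, in 7 of 7, and on chromosomes 12 and 13 the numbers were 11 of 12 each. The choice of chromosomes 10 and 14 by their low medians favours bins below 0, and no test of them is given.

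**Figure D2:**
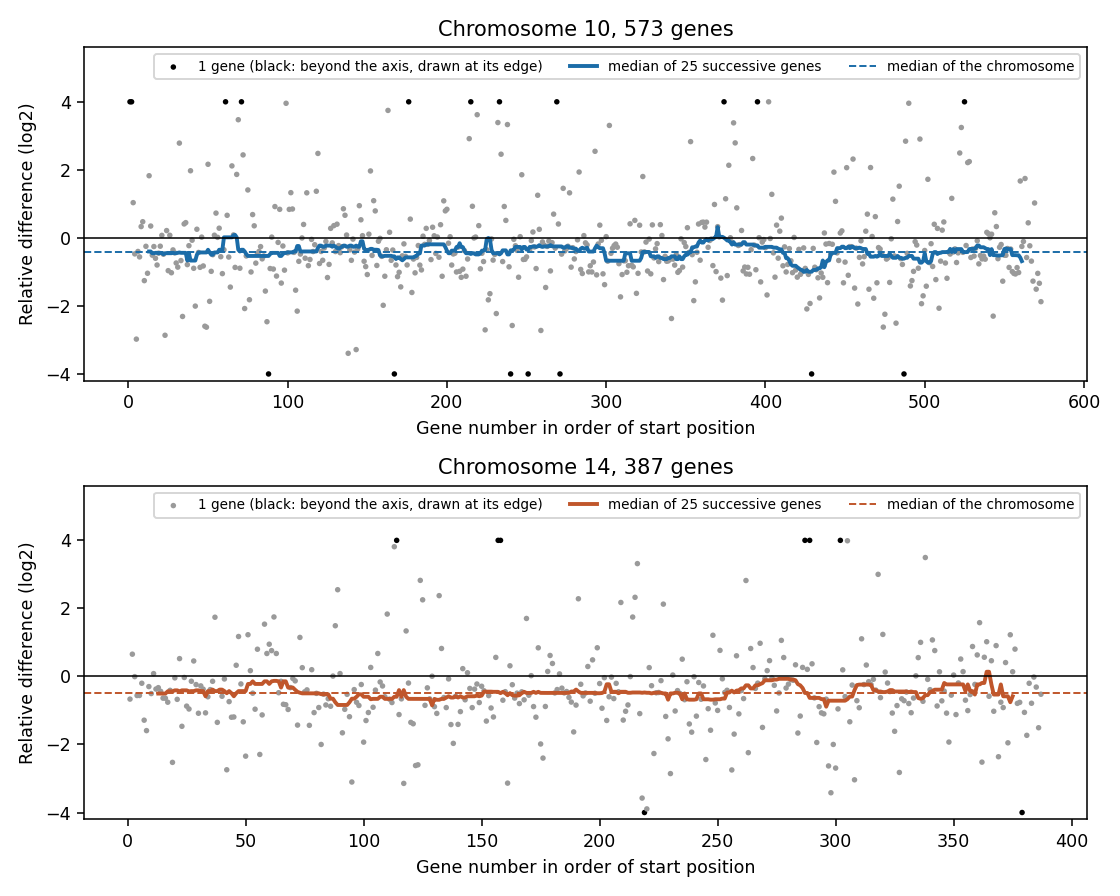
Relative difference (log2, vertical axis) of each member against its number in order of start position, with the median of 25 successive genes as a solid line and the chromosome median dashed. The running median stays below 0 in 97.1% of windows on chromosome 10 and 99.4% on chromosome 14, while single genes scatter widely on both sides.

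Medians of 25 successive genes lay below 0 in 533 of 549 windows on chromosome 10 and in 361 of 363 on chromosome 14. The choice of the chromosomes favours this too. The lowest window of chromosome 10 ran from Ikbip to Poc1b, at 91082940 to 99198074, with a median of -0.996 (range over library pairs -1.01 to -0.92). It had 20 of 25 genes called lower and 1 called higher, against 29.7% and 46.5% over all genes tested. It held Socs2, which encodes a feedback inhibitor of cytokine and growth hormone signalling, at 189 and 208 TPM in MECPK and 9.56 and 7.79 TPM in MSH2KO21B. Btg1, an antiproliferative gene, had 276 and 280 TPM against 90.1 and 95.6 TPM. Other members there also had lower values in MSH2KO21B. Slc25a3, the mitochondrial phosphate carrier gene, had 743 and 745 TPM against 434 and 416 TPM, Snrpf, a spliceosome core gene, 843 and 910 against 525 and 515 TPM, and Ube2n, a ubiquitin-conjugating enzyme gene, 330 and 327 against 203 and 209 TPM. The member called higher was Lta4h, which makes leukotriene B4, with a relative difference of 0.01. These windows and genes were chosen after their values were seen. The longest run of successive genes below 0 on chromosome 10 lay in the same window, 18 genes from Snrpf to Poc1b with a median of -1.05. The longest runs above 0 were 4 genes.

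The highest window of chromosome 10 ran from BC025920 to Tcp11l2, at 81606270 to 84614359, with a median of 0.32 (0.07 to 0.31 over library pairs). It had 12 of 25 genes called higher and 6 lower, near the 46.5% and 29.7% over all genes tested, so nothing is read from these counts. It combined weakly expressed zinc finger genes with a few genes far higher in MSH2KO21B. Among the latter, Chst11, a chondroitin sulfotransferase gene, had 0.027 and 0.025 TPM in MECPK and 34.4 and 37.4 TPM in MSH2KO21B. Gm10778 and Gm4767 had the same values as each other to the digits shown (3.15 and 3.26 TPM in MSH2KO21B), so these near-identical copies share reads and their single values are uncertain. Txnrd1, which encodes the NRF2-regulated thioredoxin reductase, lay in the same window and was lower, at 180 and 181 TPM against 56.5 and 58.3 TPM.

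On chromosome 14 the lowest window ran from Dock5 to Dmtn, at 67752135 to 70636048, with a median of -0.89 (-0.96 to -0.82 over pairs). It was mixed, with 16 of 25 genes called lower and 8 higher, against 29.7% and 46.5% over all genes tested. Pdlim2, a gene of an actin-associated LIM protein, had 37.9 and 38.2 TPM in MECPK and 6.48 and 5.95 TPM in MSH2KO21B. Slc39a14, a zinc and iron importer gene, had 70.6 and 91.4 against 11.3 and 15.9 TPM, and Tnfrsf10b, the TRAIL death receptor gene, 37.6 and 38.1 against 10.16 and 11.01 TPM. Loxl2, Phyhip and Hr, described below, stood among them in the opposite direction. The highest window, from Pibf1 to Mbnl2 at 99099424 to 120431697, covered a gene-poor stretch and had a median of 0.14 (-0.07 to 0.12 over pairs), so its sign differed between library pairs. The longest runs of genes below 0 held 12 genes each. One of them ran from Tnnc1 to Oxnad1 and held Bap1, a deubiquitinase and tumour suppressor gene. The longest run above 0, 6 genes from Plac9a to Tmem254b, consisted of near-identical copies and is uncertain.

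On chromosome 10 the middle of the distribution was lower and its extremes were not, while on chromosome 14 the whole range was lower. At the 25th, 50th and 75th percentile, chromosome 10 lay 0.35, 0.43 and 0.47 below the other chromosomes on the log2 scale. At the 5th and 95th percentile it lay 0.02 and 0.15 above them. Chromosome 14 lay below at every percentile taken, by 0.42 at the 5th, 0.51 at the 50th and 0.33 at the 95th. Among members within 1 of the median of all coding genes, 387 on chromosome 10 had a median of -0.32 and 255 on chromosome 14 one of -0.37, against -0.01 for 8340 genes in all. Genes at 1 TPM or more in both libraries of MSH2KO21B and under it in both of MECPK were 51 on chromosome 10 (8.90%) and 34 on chromosome 14 (8.79%), against 9.05% of all coding genes. The reverse held for 22 (3.84%) and 25 (6.46%), against 4.29%.

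The medians were lower among more strongly expressed genes. With all coding genes split into 3 equal groups by mean log2(TPM + 1), the median relative difference on chromosome 10 was 0.11 for 173 low genes, -0.40 for 172 middle genes and -0.52 for 228 high genes. On the other chromosomes the medians were 0.27, 0.05 and -0.11, so they also declined with level. Chromosome 10 lay lower in each group, which the choice of the chromosomes favours. On chromosome 14 they were -0.39 for 165, -0.43 for 144 and -0.67 for 78 genes. Restricted to genes with at least 10 TPM in every library, and without a pseudocount, the medians were -0.39 over 332 genes of chromosome 10 and -0.43 over 171 of chromosome 14.

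**Figure D3:**
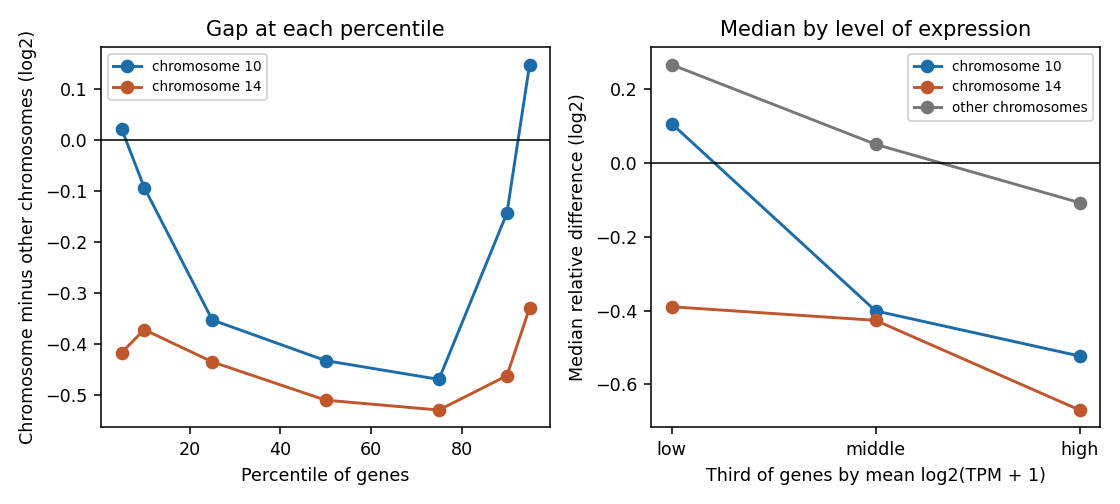
Left, the chromosome's value minus that of the other chromosomes (log2) at percentiles of genes from the 5th to the 95th; right, median relative difference (log2) in 3 equal groups of genes by mean log2(TPM + 1). Chromosome 14 is below the other chromosomes at every point, and chromosome 10 at all points but the outer percentiles.

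Genes of basic cell machinery, which most cells need at steady levels, include the most abundant members. By name prefixes (ribosomal, proteasome, respiratory chain, RNA polymerase, spliceosome, transport and translation genes), 31 members were taken, 23 called lower, 1 called higher and 7 not called, with a median of -0.68. Over all genes tested 29.7% were called lower, and over the members of both chromosomes 49.6%. The 419 genes with these prefixes on other chromosomes had a median of -0.22, so the class as a whole was also lower. The 1 called higher was Ndufa4l2, a hypoxia-inducible relative of a respiratory chain gene, and not a gene of general function. In MECPK it was listed at 0 in each library, beside 89.7 and 106 TPM in MSH2KO21B. After quantile normalization 27 were called lower, and after median-ratio scaling 29.

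The 3 most abundant members of each chromosome were ribosomal protein genes and Tpt1. Rpl41, the gene of the smallest cytosolic ribosomal protein, had 16845 and 15725 TPM in MECPK and 8898 and 9154 TPM in MSH2KO21B, 1.80-fold lower. Rps26 had 3640 and 3713 against 2038 and 2113 TPM (1.77-fold lower), and Rps15 2953 and 2794 against 1596 and 1561 TPM (1.82-fold lower). The lines did not overlap for any of the 3, as for 89.0% of all coding genes. On chromosome 14, Tpt1, which encodes the translationally controlled tumour protein TCTP, had 2766 and 2612 TPM in MECPK and 1013 and 996 TPM in MSH2KO21B (2.68-fold lower). Rps24 had 2208 and 1927 against 1191 and 1229 TPM, and Rpl15 1095 and 1068 against 789 and 761 TPM. Ribosomal protein genes and Tpt1 have many pseudogenes, so their values are uncertain. After quantile normalization Rpl41 had a difference of 0 and was not called. That scaling gives genes of equal rank the same value in every library, so this 0 is no measure of equal RNA in the lines.

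Within families the medians of the 2 chromosomes lay below those of the rest. The chromosomes were chosen by low medians of these same differences, which favours this order, so nothing is read from it. The cytosolic ribosomal protein genes had a median relative difference of -1.03 on chromosome 10 (4 genes) and -0.82 on chromosome 14 (2 genes), against -0.42 for 84 elsewhere. Mitochondrial ribosomal protein genes were at -0.49 (2 genes) and -0.68 (3 genes), against -0.24 for 73. Mrpl52 had 147 and 138 TPM in MECPK and 73.0 and 68.2 TPM in MSH2KO21B. RNA polymerase and spliceosome genes were at -0.86 (5 genes) and -0.72 (2 genes), against -0.10 for 35, and the 5 proteasome genes of chromosome 14 at -0.44, against 0.01 for 42. Polr2e, a subunit shared by RNA polymerases, and Sf3a2, a subunit of the U2 spliceosome particle, were called lower, with relative differences of -0.93 and -1.04. These counts are small, and no test of them is given.

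Genes that control growth and survival made up the next list. Of 34 tested members of the growth control list (37 listed), 22 were called lower, 6 higher and 6 not called, with a median relative difference of -0.71. Over the members of both chromosomes 49.6% were called lower and 26.8% higher, and over all genes tested 29.7% and 46.5%, and nothing is read from the list's counts. Hmga2, a fetal chromatin architecture gene often reactivated in tumours, had 724 and 872 TPM in MECPK and 39.2 and 42.6 TPM in MSH2KO21B, 19.5-fold lower. Both MECPK libraries were far above both of the other line. Mdm2, the ubiquitin ligase of p53 and itself a p53 target, had a difference of -2.05, while Cdk4, the kinase that starts the cell cycle with D cyclins, had -0.49. Tnfaip3, a brake on NF-kappaB signalling, had -1.67. On chromosome 14, Tnfrsf10b (-1.75), Spry2, a feedback inhibitor of growth factor signalling (-0.83), and Bap1 (-0.33) were called lower. Rb1, which restrains entry into S phase, was not called (-0.04), nor was Cdk1, the mitotic kinase (0.04). Their relative differences were -0.24 and -0.16. Apart from Hmga2 and Socs2, these were named after their values were seen.

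The growth control members that were higher were led by Sgk1, a serum- and glucocorticoid-induced kinase gene, with 8.82 and 10.1 TPM in MECPK and 237 and 253 TPM in MSH2KO21B, 26.0-fold higher. Gli1, the transcriptional effector and target of Hedgehog signalling, had 0.323 and 0.251 against 11.99 and 13.97 TPM. Plagl1, an imprinted zinc finger gene, had 1.70 and 0.678 against 19.9 and 12.5 TPM, with the replicates of each line apart from each other. Fyn, a SRC-family kinase gene, and on chromosome 14 Kat6b and Cdkn3 were the others called higher. After quantile normalization 5 members were called higher and 24 lower.

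Many of the single genes with the greatest differences were near 0 in 1 line, while others, such as Agpat3, Socs2, Hr and Ccser2, were expressed in both. On chromosome 10 Timp3 (ENSMUSG00000020044.13, 86300372 to 86349506), an inhibitor of matrix metalloproteinases, had 0.402 and 0.188 TPM in MECPK and 832 and 841 TPM in MSH2KO21B. H60c, a ligand of the natural killer receptor NKG2D and the first member of the chromosome, had 0.330 and 0.154 against 127 and 127 TPM. Ggt1, a gene of extracellular glutathione breakdown, had 0.264 and 0.178 against 77.2 and 73.8 TPM. Moxd1, a monooxygenase gene of neural crest and other tissues, had 0.188 and 0.229 against 51.0 and 53.3 TPM. With Chst11 and Ndufa4l2 these were the 6 greatest positive differences, from 9.34 for Timp3 to 5.17 for Chst11 on the log2 scale.

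In the other direction on chromosome 10, Misp, a gene of a mitotic spindle and actin protein of polarised epithelia, had 53.6 and 56.4 TPM in MECPK and 0.095 and 0.081 TPM in MSH2KO21B. Itgb2, the leukocyte integrin chain gene, had 49.1 and 37.8 against 0.053 and 0.056 TPM, although the pan-leukocyte gene Ptprc was under 0.06 TPM in every library. Tpd52l1, a vesicle trafficking gene, had 44.6 and 43.3 against 0.182 and 0.395 TPM. Pcbd1, a cofactor gene of HNF1 and of pterin recycling, had 36.3 and 29.6 TPM in MECPK and was listed at 0 in MSH2KO21B. Agpat3, a phospholipid acyltransferase gene, had 207 and 248 against 7.08 and 4.94 TPM, 37.9-fold lower. With Socs2 these were the 6 greatest negative differences, from -5.69 for Misp to -4.37 for Socs2.

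On chromosome 14, Sncg, which encodes gamma-synuclein (ENSMUSG00000023064.4, 34370274 to 34374789), had 0.218 and 0.103 TPM in MECPK and 304 and 315 TPM in MSH2KO21B. The ribonuclease gene Rnase4 had 0.246 and 0.539 against 119 and 117 TPM, and Ang, the angiogenin gene, 0.169 and 0.079 against 25.8 and 25.8 TPM. Their annotated starts are at 51091077 and 51091150 and the genes overlap, so the division between them is uncertain. Phyhip had 0.199 and 0.054 against 99.3 and 91.7 TPM. Loxl2, a lysyl oxidase that cross-links collagen, had 0 and 0.010 against 31.3 and 31.4 TPM, and Hr, a corepressor gene of hair follicle cycling, 2.22 and 2.39 against 58.9 and 58.9 TPM. Their differences ran from 8.07 for Sncg to 4.18 for Hr.

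The greatest negative differences on chromosome 14 began with Mcpt8, a serine protease gene, at 23.2 and 28.7 TPM in MECPK and listed at 0 in MSH2KO21B. Gzme, a granzyme gene that lies close by in the same protease cluster, had 12.4 and 12.6 against 0 and 0.081 TPM, and its near-identical relatives make the value uncertain. Farp1 had 29.6 and 32.3 against 0.233 and 0.248 TPM. Sdr39u1 had 17.3 and 17.2 against 0.618 and 0.888 TPM, Sorbs3, the gene of the focal adhesion protein vinexin, 14.8 and 15.6 against 0.581 and 0.893 TPM, and Ccser2 29.4 and 34.1 against 3.18 and 3.27 TPM. Their differences ran from -4.75 for Mcpt8 to -2.95 for Ccser2.

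**Figure D4:**
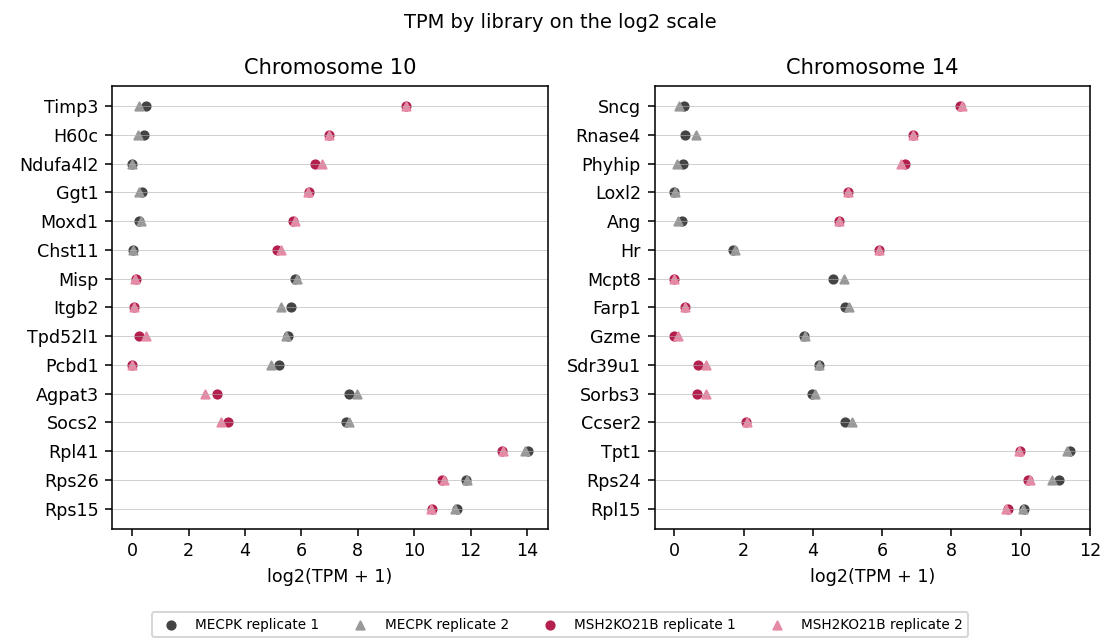
Level of each gene in each of the 4 libraries (log2(TPM + 1), horizontal axis) for the 6 greatest differences in each direction and the 3 most abundant members of each chromosome. Replicates lie close together for every gene shown, and the abundant genes at the foot differ by far less than the others.

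Genes of matrix, adhesion and proteolysis were called in both directions. Of 26 tested members 12 were called higher and 11 lower, with a median of -0.39, and after quantile normalization or median-ratio scaling 12 and 14. Over all genes tested 46.5% were called higher and 29.7% lower, which is the background for this list and the 4 that follow, and nothing is read from their counts. Beside Timp3 and Loxl2, Col6a1, which encodes a chain of the pericellular collagen VI, had 0.017 and 0 TPM in MECPK and 19.43 and 18.999 TPM in MSH2KO21B. Its neighbour Col6a2 (3.58) and the laminin gene Lama4 (4.15) were higher too. Itgb2, the urokinase gene Plau (-2.55) and the glypican gene Gpc6 (-2.17) were lower. Col6a2, Lama4, Plau and Gpc6 were named after their values were seen. Of the stromal markers, Vim was higher in MSH2KO21B, as was Pdgfra at a low level (0.265 and 0.771 against 1.15 and 1.39 TPM). Col1a1, Col1a2, Col3a1, Dcn and Lum were under 1 TPM in every library.

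Ligands and receptors were split, with 6 called higher and 7 lower of 16 tested. Ccn2, a matricellular growth factor gene and YAP target, had 101 and 70.0 TPM in MECPK and 534 and 521 TPM in MSH2KO21B. Lrp1, an endocytic receptor gene, had 1.38 and 2.16 against 13.2 and 14.6 TPM. On chromosome 14 the ligand genes Bmp4 (0.340 and 0.382 against 6.71 and 7.45 TPM) and Wnt5a (0.640 and 0.783 against 3.34 and 3.32 TPM) were higher, and the receptor gene Bmpr1a was lower, by -0.93. After quantile normalization 5 were higher and 8 lower. Kitl, the ligand of the KIT receptor (-1.12), and Erbb3, a receptor of neuregulins (-0.68), were lower on chromosome 10. Bmpr1a, Kitl and Erbb3 were named after their values were seen.

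Of 28 tested transcription factors, 8 were called higher and 13 lower, with a median of -0.31. Hmga2, Gli1 and Plagl1, also of the growth control list, had the greatest differences. On chromosome 14, Sall2, a zinc finger factor gene, had 0.043 and 0.048 TPM in MECPK and 3.17 and 2.64 TPM in MSH2KO21B. Gata4, a factor of endoderm and gonad, was lower (-1.50), and Klf5, a factor of proliferating epithelium, was higher (0.71). Esr1, the estrogen receptor gene, was low in both lines, at 1.32 and 1.40 TPM against 2.999 and 2.528 TPM, and called higher. Gata4, Klf5 and Esr1 were named after their values were seen.

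Genes of DNA repair, replication and chromatin were called in both directions. Of 29 tested members 9 were called higher and 11 lower, 4 and 13 after quantile normalization, with a median of -0.08. Prmt2, an arginine methyltransferase gene, had 30.4 and 29.3 TPM in MECPK and 9.34 and 8.63 TPM in MSH2KO21B. Apex1, the abasic site endonuclease of base excision repair, had 334 and 329 against 202 and 195 TPM, and Tep1, a telomerase- and vault-associated gene, 2.40 and 2.68 against 0.683 and 0.577 TPM. Dot1l, the histone H3 lysine 79 methyltransferase gene, had 28.5 and 27.7 against 52.7 and 41.2 TPM, a difference of 0.71. Without MECPK replicate 2 the difference was 0.69 and its call was lost. With protein-coding transcripts only it was 0.34, where the median difference of all coding genes was 0.19.

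The list of interferon, antigen presentation and NK ligand genes had 10 members called higher and 9 lower of 24, and 8 and 12 after quantile normalization, with a median of -0.07. Beside H60c, the NKG2D ligand gene Raet1d had 0.092 and 0 TPM in MECPK and 4.45 and 3.92 TPM in MSH2KO21B, while the related H60b (-1.25) and Raet1e (-0.37) were lower. These ligands are close relatives, so their values are uncertain. Ripk3, the kinase of necroptosis, had 0.168 and 0.102 against 11.90 and 11.95 TPM. Nuak1, an AMPK-related kinase gene and not an immune gene, had 3.67 and 3.61 against 54.2 and 54.4 TPM. Irf9 and Stat2, which form the interferon-activated factor ISGF3, were not called (0.16 and 0.30). H60b, Raet1e, Irf9 and Stat2 were named after their values were seen.

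**Figure D5:**
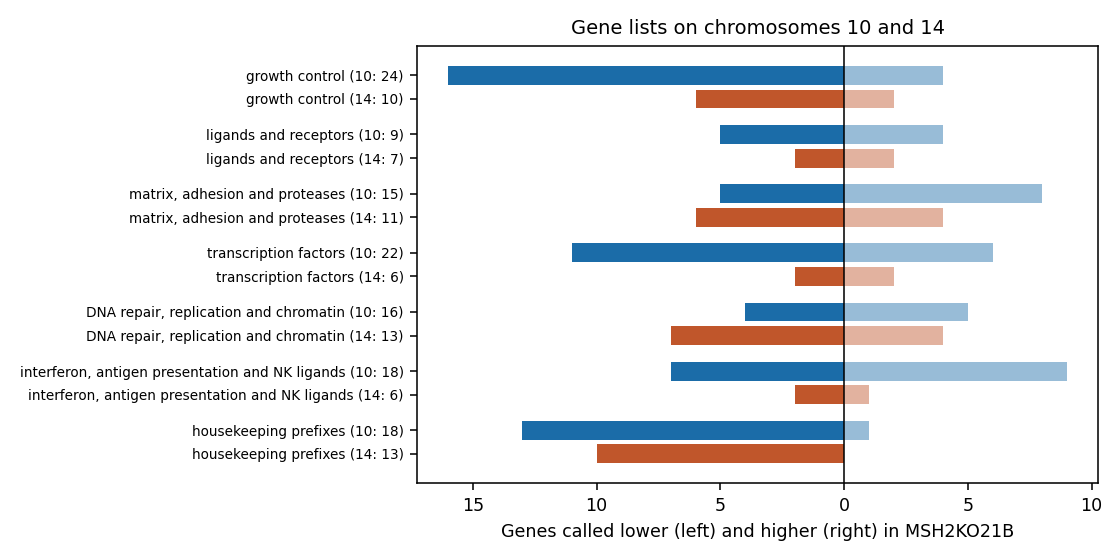
Number of members called lower (bars to the left) and higher (bars to the right) in MSH2KO21B for each gene list on chromosome 10 (blue) and chromosome 14 (orange), with the number tested beside each name. Growth control had 22 lower and 6 higher, and the name prefixes of basic machinery had 23 lower and 1 higher. All members of both chromosomes also leaned to the left, with 49.6% called lower and 26.8% higher, so nothing is read from these counts.

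At the ends, the medians of both chromosomes were also below that of all coding genes. The last member of chromosome 10, Mettl7b, had 2.50 and 2.62 TPM in MECPK and 0.097 and 0.123 TPM in MSH2KO21B. The last member of chromosome 14, Tmtc4, had 7.66 and 15.3 against 8.43 and 8.49 TPM, so the lines overlapped. It was not called, but was called without MECPK replicate 1 (adjusted p = 0.0059). The first 10 Mb of chromosome 10 had a median of -0.40 over 25 members and the last 10 Mb one of -0.44 over 91. On chromosome 14 these were -0.56 over 8 and -0.78 over 12.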

How the data were processed

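The deposited table gives transcript TPM from 4 libraries, 2 per line, as the authors computed it. The submitters' processing notes name kallisto 0.43.1 and build GRCm38, without options or annotation release. Each column sums to 1000000, so TPM keeps no depth, the depth is unknown, and no counting interval was computed. Of 61440 transcripts, 60417 were paired with GENCODE M21 genes by identifier without version; the other 1023 held 0.845% to 1.04% of a library's TPM. TPM was summed per gene. Genes with 1 TPM or more in at least 2 libraries (11916) entered a limma fit (version 3.58.1, R 4.3.3) on log2(TPM + 1), using a trend of variance with level, the line as the only term, 2 residual and 2.49 prior degrees of freedom, and Benjamini-Hochberg adjustment over all of them at 0.05. Since no label says that replicates came from separate cultures, p-values reflect the spread between libraries alone, and this may be technical. A two-sided exact permutation test of 2 against 2 libraries cannot go below p = 0.333, so none was run on single values.

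Relative differences, clipped at -2 and 2, were partitioned in Python 3.11.15 with a penalty of 3 times the variance of successive genes (0.613) times the natural log of the number of genes. The limma fit and the partition were tested on simulated data. Promoters were matched by symbol to the RefSeq table (759 of 960 members), taking the start nearest the GENCODE start. Named genes were, per chromosome, the 6 greatest called differences each way with at least 10 TPM and no overlap, the 3 most abundant, the first and last of a segment, up to 4 called members per list, and the genes at the filter's edge. Some results that this rule would name are not reported here. The members, lists and named-gene rule were chosen with earlier results of these data known. Alternatives were other pseudocounts, filters, scalings, transcript sets, partition settings, a replicate block, and each library left out.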

Additional observations from a re-analysis of the deposited data

How the results depend on the processing

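The direction of both chromosome medians and the single segment on each were the same under every alternative run. The medians of chromosomes 10 and 14, -0.40 and -0.48 as reported, were -0.43 and -0.52 with a pseudocount of 0.1, -0.42 and -0.53 with a filter of 10 TPM, and -0.38 and -0.53 after quantile normalization. They were -0.11 and -0.11 with no filter, where genes near 0 in both lines enter. They were -0.32 and -0.37 over genes within 1 of the median. Chromosome 14 was at -0.45 with protein-coding transcripts only, and chromosome 10 at -0.86 over the name prefixes alone. Leaving out each library gave -0.40 to -0.38 and -0.48 to -0.47. Counts called lower were then 215 to 262 and 158 to 187, and counts called higher 128 to 154 and 77 to 96; leaving out a library leaves a lone sample assumed to vary like the other line. A filter of 10 TPM left 101 and 54 called higher, with fewer genes tested. The replicate numbers share only a number: deviations of same-numbered libraries correlated at 0.018 across genes, and the replicate block gave 279 lower and 156 higher on chromosome 10 and 194 and 94 on chromosome 14. Of 51 named genes, 47 kept their direction and call in all 12 alternatives that could test them; Dot1l, Tmtc4 and Rpl41 were among those that did not. The median difference of all coding genes moved from 0.19 to -0.02 after quantile normalization, 0.02 after median-ratio scaling and 0.07 with no filter.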
